A study of Homo sapiens with 28 samples.

Results

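The 47 genes described here encode the nucleotide excision repair machinery, and they were taken as a fixed list from the 19970 protein-coding genes of the GENCODE annotation on hg38. The rule uses no measured value, although the list was chosen with earlier results of these data known. The list holds 6 recognition genes, 7 genes of transcription-coupled repair, 10 TFIIH genes, 7 genes of damage verification and incision and 17 genes of gap synthesis and ligation. Each gene was described over its locus, which is the gene body with 5 kb on either side, and separately over its promoter, which is 1 kb on either side of the annotated start, and over the rest of the body.

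Nucleotide excision repair removes the pyrimidine dimers that UV light leaves in DNA. XPC with RAD23B, helped by the DDB2 complex, finds lesions anywhere in the genome, whereas ERCC6 and ERCC8 act where RNA polymerase has stalled on a transcribed strand. Both routes recruit TFIIH, whose helicases open the duplex, then the nucleases ERCC4-ERCC1 and ERCC5 cut on either side of the lesion, and polymerases and ligases fill and seal the gap. H3K36me2 is dimethylation of lysine 36 of histone H3, one of the marks that the methyltransferase ASH1L deposits. It is typically low over the bodies of strongly transcribed genes.

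The data were chromatin immunoprecipitation sequencing peak lists from U2OS, a human osteosarcoma cell line. H3K36me2 was profiled in wild-type cells without UV (n = 2) and 3 h after 20 J per m2 of UV-C (n = 2), with input chromatin pooled over duplicates as control. The other antibody was anti-FLAG. It pulled down the Flag-tagged C-terminal part of ASH1L (ASH1L-CTD), expressed from a CMV promoter by transient transfection of ASH1L-/- cells, without UV (n = 3) and 3 h after the same dose (n = 3). These knockout cells were grown from single colonies after CRISPR deletions in exon 2 and exons 11 and 12, and their control was the anti-FLAG precipitate of ASH1L-/- cells carrying the empty vector. That control was matched to each replicate without UV but pooled at 3 h, so for ASH1L-CTD the control and the UV treatment cannot be told apart. The replicates are described as biological, and p-values measure the spread between these lists. Gene expression was not analysed here.

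Every one of the 10 lists held exactly 500000 peaks, and none carried a read depth, so counting error could not be computed. The H3K36me2 lists covered between 13.8% and 15.7% of the genome and the ASH1L-CTD lists between 9.23% and 11.5%. As a check of the construct, the highest peak within ASH1L reached 5.87-fold to 41.2-fold enrichment in the 6 ASH1L-CTD lists against at most 3.67-fold elsewhere, and 1.91-fold to 2.46-fold in the 4 H3K36me2 lists. Peaks at the repair loci were weak. The highest enrichment there was between 2.70-fold and 3.19-fold for H3K36me2 and between 2.40-fold and 2.66-fold for ASH1L-CTD. Between 37.1% and 41.6% of the H3K36me2 peaks in these loci reached a −log10 p of 2, against 40.8% to 45.0% of all peaks of the same lists. For ASH1L-CTD the share was between 5.72% and 9.86%, against 5.86% to 8.42%.

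The loci lie on 19 chromosomes and had a median length of 43.8 kb, from 13.4 kb at POLE3 to 245 kb at MNAT1. Their median G+C content of 44.8% compared with 44.7% over all protein-coding genes. In 37 of the 47 loci another protein-coding gene reached into the gene body or its flanks, so a peak there may lie over a neighbour, and none overlapped another member. The outermost annotated start lies over 1 kb from the canonical start in 10 genes, by 54911 bases in ERCC1 and 98731 bases in POLD3, so these loci extend far beyond the usual transcript. Adjacent pyrimidines, at which UV dimers form, made up a median of 55.9% of the base steps of the repair loci and 56.4% of those of all genes.

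H3K36me2 was sparse at the repair genes before UV. Without UV it covered a median of 4.29% of a repair locus against 8.88% over all protein-coding genes, and 3 h after UV the medians were 1.82% and 4.91%. Pooled over all bases of the loci, coverage was 6.44% and 6.92% in the replicates without UV and 4.70% and 4.43% at 3 h. The pooled mean went from 6.68% ± 0.34 (SD, n = 2) to 4.57% ± 0.20, a log2 ratio of -0.55. Over all genes it went from 14.1% ± 0.05 to 11.7% ± 0.12, a log2 ratio of -0.28. Relative to the share of the genome each list covered, the log2 ratio was -0.41 at the repair loci and -0.13 over all genes. The median log2 ratio of a gene covered in both conditions was -0.49 over all genes and -0.73 over the 33 repair genes so covered, and this scaling moved them to -0.35 and -0.59.

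**Figure D1:**
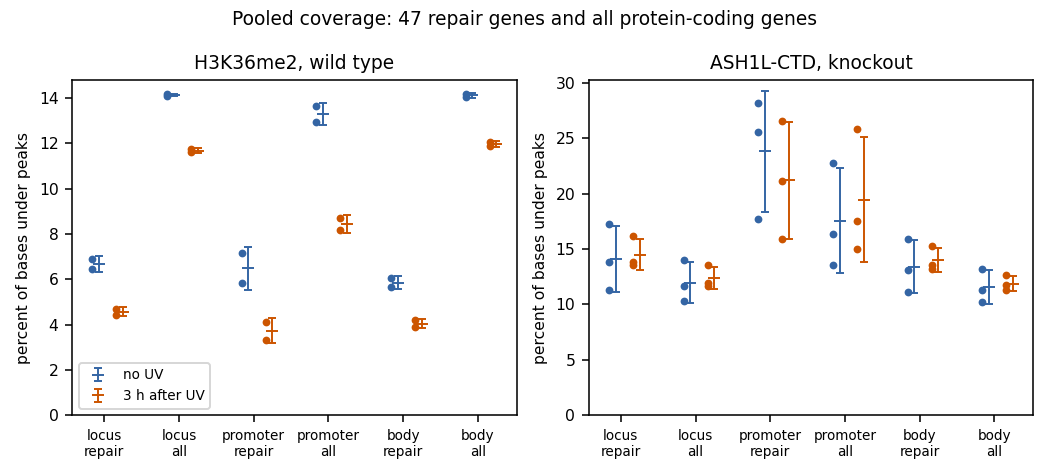
Percent of bases under peaks, pooled over the 47 repair genes or over all protein-coding genes, for loci, promoters and bodies. Points are peak lists, and bars are the mean and SD (n = 2 for H3K36me2, n = 3 for ASH1L-CTD). Repair loci went from a mean of 6.68% to 4.57% for H3K36me2, below the values of all genes in every region, whereas the ASH1L-CTD replicates of both conditions overlap.

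Lower coverage at 3 h was common among the repair genes and among genes in general. Of the 47 loci, 41 had a lower mean at 3 h (87.2%, beside 73.5% of all protein-coding genes), 5 a higher mean (10.6%, beside 20.5%) and 1 was at 0 in all lists. In 24 loci (51.1%) both replicates at 3 h lay below both replicates without UV, beside 47.5% of all protein-coding genes, and in 3 loci (6.38%) both lay above, beside 6.50%. With 2 against 2 samples no exact permutation test of a single gene can give a two-sided p below 0.333. In limma fitted across 18766 genes, which shares the estimate of the spread among genes, 2 of the 46 repair loci tested fell at a Benjamini-Hochberg adjusted p under 0.05 (4.35%, beside 8.54% of all genes tested) and none rose (beside 0.101%). The same test without adjustment gave 8 lower and 0 higher among the 46 repair loci, beside 5055 lower and 287 higher among all 18766 genes. Leaving out any 1 of the 4 lists left no repair locus past the threshold, and no gene of the whole fit either. Leaving out any list raised the 3 loci that lay above to 5, with no share over all genes beside it. With fewer lists the conditions separate more easily at any gene.

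**Figure D2:**
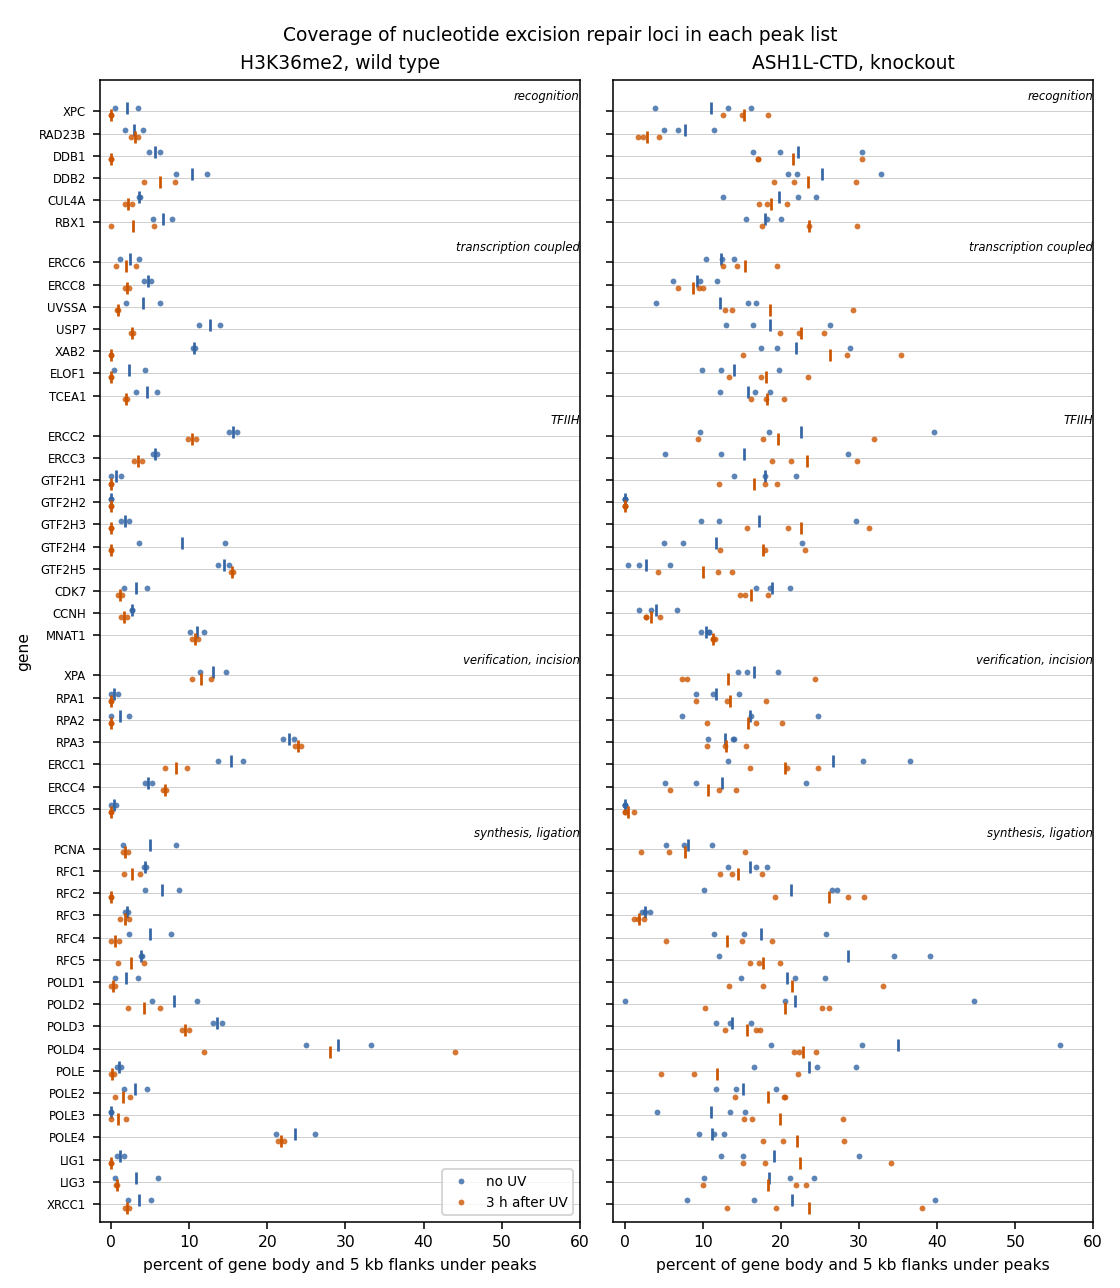
Percent of the locus (gene body and 5 kb flanks) under peaks for each repair gene, grouped by role, in the H3K36me2 lists (left) and the ASH1L-CTD lists (right). Each point is a list, blue without UV and orange 3 h after UV, and the ticks are condition means. At XAB2 and USP7 the H3K36me2 points at 3 h sit below those without UV, while the ASH1L-CTD points of most genes overlap between conditions.

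The genes of transcription-coupled repair included both loci that fell. XAB2, a splicing-linked partner of XPA and of the stalled-polymerase factors, was covered to 10.4% and 10.8% without UV and was at 0 in both lists at 3 h. The mean fell by 10.6 percentage points (SE 1.70, limma adjusted p = 0.0445). USP7, the deubiquitinase that stabilises ERCC6 through UVSSA, was covered to 11.3% and 14.0% without UV and to 2.46% and 2.76% at 3 h. Its mean fell by 10.0 percentage points (SE 1.28, limma adjusted p = 0.0341). Both calls were lost after scaling to genome coverage, on the log2 scale, without flanks, by peak centres, with a stricter peak p and when any 1 list was left out. That of XAB2 was also lost with the replicate block and with 10 kb flanks, and that of USP7 with one prior variance for all genes. At both genes the replicates of each condition lay close together and the conditions were far apart.

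The sites behind these differences could be placed. In USP7 (chr16:8892097-8975328, minus strand) 7 sites held a peak in both replicates without UV, 6 in introns of the canonical transcript and 1 in the gene upstream of it, and 1 intronic site did so at 3 h. The strongest, chr16:8946573-8948347, lay 27868 bases into the gene and reached 1.99-fold and 2.34-fold enrichment, and the site that remained at 3 h, chr16:8947760-8948413, overlapped it. In XAB2 (chr19:7619525-7629545, minus strand) a shared site of 1101 bases was centred in exon 2 and another of 1327 bases lay in the upstream flank, and neither had a counterpart at 3 h. The XAB2 locus also holds parts of CAMSAP3, PET100 and PCP2.

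The other 5 genes of this group were lower on average too. All 7 means were lower at 3 h, beside 73.5% of all genes. In 6 of the 7 the replicates did not overlap (85.7%, beside 47.5%). ERCC6, the Cockayne syndrome B translocase, was the exception, with 3.57% and 1.14% without UV and 3.10% and 0.647% at 3 h. ERCC8, the Cockayne syndrome A subunit of a ubiquitin ligase, went from a range of 4.22% to 5.07% to one of 1.78% to 2.32%, and UVSSA, TCEA1 and ELOF1 were likewise below in both lists. Pooled over the 7 loci, coverage was 5.91% ± 0.74 (SD, n = 2) without UV and 1.76% ± 0.24 at 3 h, a log2 ratio of -1.75. This was the lowest ratio of the 5 roles. Pooling weights loci by length, and USP7, a long locus of 93.2 kb, was the most covered of the 7 without UV. The median over the 7 loci went from 4.51% to 1.87%. The difference between roles was not tested.

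Among the recognition genes, XPC, the damage sensor itself, was covered to 0.449% and 3.44% without UV and was at 0 in both lists at 3 h. DDB1, the adaptor that holds DDB2 in its ubiquitin ligase, was covered to 4.86% and 6.22% and then to 0 in both lists (limma adjusted p = 0.0648). DDB2, which binds UV dimers directly, was covered to 12.3% and 8.30% without UV and to 4.24% and 8.15% at 3 h. These DDB2 ranges did not overlap, but the nearest values of the conditions were almost equal. CUL4A, the ligase scaffold, was lower in both lists as well. RAD23B, the partner of XPC, and RBX1, the ring subunit of the ligase, overlapped between conditions. None of the 6 passed the adjusted threshold.

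The TFIIH loci differed in level and in direction. ERCC2, the XPD helicase, was covered to 16.1% and 15.1% without UV and to 10.9% and 9.84% at 3 h (limma adjusted p = 0.103). GTF2H5, the small subunit mutated in trichothiodystrophy, was covered to 13.7% and 15.1% without UV and to 15.6% and 15.3% at 3 h. It was 1 of the 3 repair loci whose 3 h lists both lay above, by a mean of 1.05 percentage points. GTF2H4, which anchors the XPB helicase, was at 3.55% and 14.6% and then at 0 in both lists, so the replicates without UV differed widely. MNAT1, the assembly factor of the CDK7 kinase module and the longest locus, stayed between 10.1% and 11.8% in all 4 lists. GTF2H2 was listed at 0 in all 10 lists of both antibodies. It has near-identical copies on chromosome 5, so its value is uncertain. In all, 6 of the 10 TFIIH loci had non-overlapping lower values, beside 47.5% of all genes. In 1 the values were higher without overlap, beside 6.50%.

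Among the verification and incision genes 1 locus was lower without overlap (14.3%, beside 47.5% of all genes) and 2 were higher (28.6%, beside 6.50%). ERCC1, the partner of the XPF nuclease, was covered to 13.7% and 16.9% without UV and to 9.67% and 6.89% at 3 h (limma adjusted p = 0.0887). ERCC4, which encodes XPF, went the other way, with 4.31% and 5.16% without UV. Its lists at 3 h were at 7.01% and 6.65%, the largest non-overlapping difference upwards of the list at 2.09 percentage points (SE 1.17, limma adjusted p = 0.342). The shared sites of ERCC4 in both conditions lay in the downstream flank, and none lay in the gene. RPA3, the smallest subunit of the single-strand binding protein RPA, was among the most covered loci at 23.4% and 22.1% without UV and 23.6% and 24.3% at 3 h. XPA, the verification scaffold, overlapped between conditions at 10.3% to 14.6%. RPA1 and ERCC5, the XPG nuclease, were the least covered loci after GTF2H2. RPA1 was at 0.804% in 1 list and at 0 in the other 3, and ERCC5 was at 0.622% in 1 list and at 0 in the other 3.

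Among the 17 synthesis and ligation genes, 16 had a lower mean at 3 h (94.1%, beside 73.5% of all genes). In 7 this was without overlap (41.2%, beside 47.5%). RFC2, a clamp loader subunit, was covered to 4.26% and 8.73% and then to 0 in both lists. POLD3, an accessory subunit of DNA polymerase delta, was covered to 14.1% and 13.0% without UV and to 9.05% and 9.89% at 3 h (limma adjusted p = 0.0677). The most covered locus of the list was POLD4, the smallest subunit of the same polymerase, at 25.0% and 33.2% without UV and 44.1% and 11.9% at 3 h. These 3 h lists disagreed by more than any other pair at a repair locus. Over the body of POLD4 alone, coverage was 48.3% and 59.0% and then 30.2% and 17.2% (limma adjusted p = 0.110), and a single site of 6467 bases centred in the upstream flank was shared by the lists at 3 h. POLE4, a histone-fold subunit of DNA polymerase epsilon, stayed between 21.0% and 26.1%. Its partner POLE3 was the 1 gene of this role with a higher mean, from 0 in both lists to 0 and 1.83%.

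Where the mark lay along the genes is shown by the profile around the start. Without UV, coverage of the repair genes peaked at 20.2% ± 0.77 (SD, n = 2) between 4 kb and 2 kb upstream and was 6.23% ± 0.24 between 2 kb and 4 kb downstream. At 3 h these bins were at 12.7% ± 2.67 and 1.95% ± 0.34. Over all genes the same bins were at 16.5% and 14.9% without UV and at 11.8% and 9.17% at 3 h. Coverage of the repair genes was thus lowest just downstream of the start at 3 h. In every 2 kb bin from 10 kb upstream to 10 kb downstream both 3 h lists lay below both lists without UV, for the repair genes and for all genes alike. Further downstream, to 30 kb, the conditions overlapped at the repair genes in several bins, such as 10 kb to 12 kb. Over all genes they did not overlap in any bin.

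**Figure D3:**
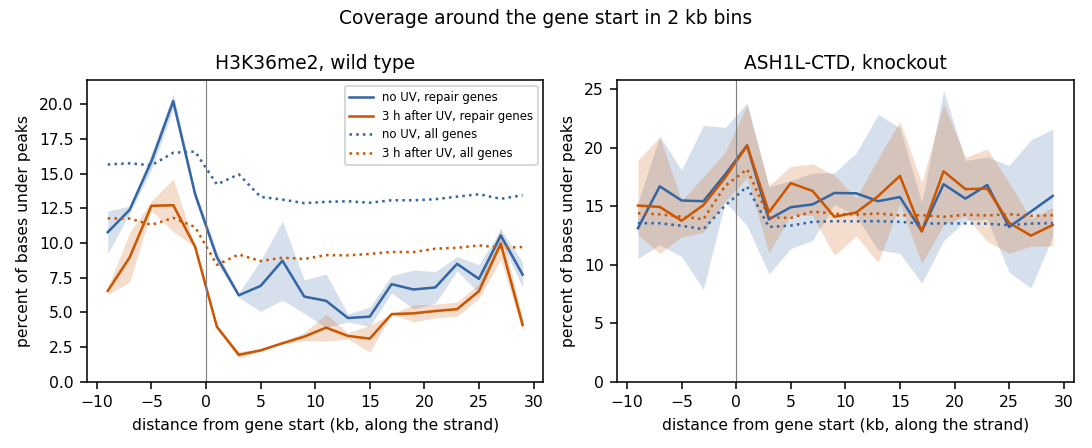
Percent of bases under peaks in 2 kb bins from 10 kb upstream to 30 kb downstream of the gene start. Solid lines are means over the 47 repair genes with a band from the lowest to the highest replicate, and dotted lines are all protein-coding genes. H3K36me2 at repair genes was 20.2% without UV between 4 kb and 2 kb upstream and 1.95% at 3 h between 2 kb and 4 kb downstream, while the ASH1L-CTD bands of the conditions overlap throughout.

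Over bodies alone, no repair gene passed the adjusted threshold in limma (0 of 39 tested, beside 4.11% of all genes called lower and 0.0629% called higher). Without adjustment 7 of the 39 were lower and 0 higher, beside 3680 and 282 of all 15907 genes. USP7 was nearest, at 11.8% and 15.2% without UV and 2.79% and 2.80% at 3 h (limma adjusted p = 0.0535). Leaving out the first list without UV gave 3 repair bodies called lower, beside 1498 of 15453 genes.

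Base composition moved with these differences. Across the 47 repair loci the H3K36me2 difference was more negative where G+C content was higher, with a Spearman correlation of -0.55 (Pearson -0.54), and across all 19970 genes it was -0.60 (Pearson -0.57). The points share libraries and are genes rather than replicates. XAB2, whose locus is the richest in G+C of the list at 60.4%, had the largest difference, and ERCC4, at 40.0%, had the highest positive one. USP7, the other called locus, had a difference of -10.0 percentage points at a G+C content of 46.7%, near the list's median of 44.8%. The part of base composition in the calls at XAB2 and USP7 was not tested.

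**Figure D4:**
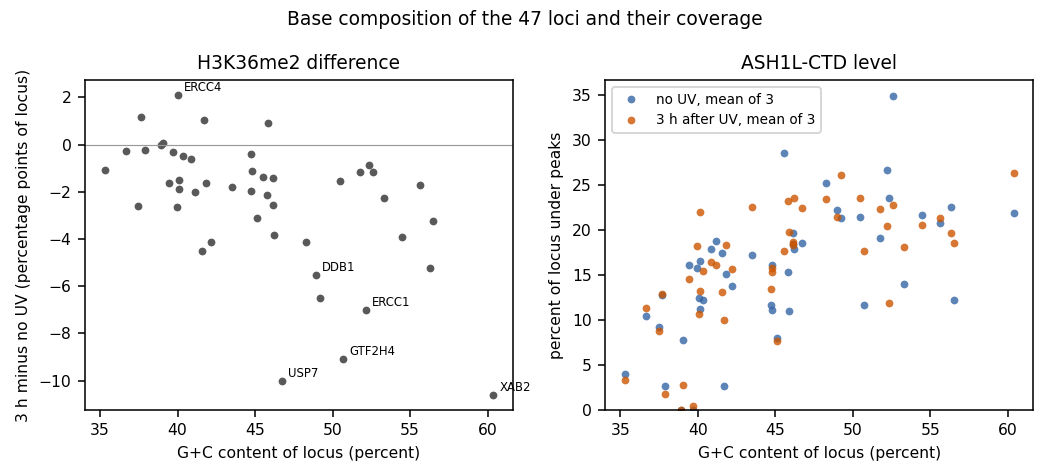
Left, the H3K36me2 difference (3 h minus no UV, percentage points of locus covered) against G+C content for the 47 loci. Right, mean ASH1L-CTD coverage of the same loci against G+C content in both conditions (n = 3 lists each). XAB2 at 60.4% G+C is the lowest point on the left, and ASH1L-CTD coverage is higher in loci richer in G+C.

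H3K36me2 was at 0 in all 4 lists in 22 of the 47 repair promoters, beside 9685 of all 19970. It was at 0 in both lists at 3 h in 38, beside 13205 of 19970. Pooled coverage went from 6.49% ± 0.94 (SD, n = 2) to 3.73% ± 0.55, a log2 ratio of -0.80, beside -0.65 over all promoters. None of the 25 promoters tested passed the adjusted threshold in limma (beside 0% of 10285 promoters), and 1 was lower without adjustment, beside 1241 of all promoters tested. The fit was sensitive to the lists. Without the first list without UV it called 8 repair promoters lower, beside 2730 of 9325 promoters, and without the second 11, beside 2301 of 8942.

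Both replicates lay below at 4 promoters (8.51%, beside 15.8% of all promoters), those of DDB2, XAB2, RFC5 and XRCC1, and above at 1 (2.13%, beside 2.93%). XRCC1, the scaffold of the ligase LIG3, had 11.1% and 46.5% of its promoter covered without UV and 0 in both lists at 3 h. RFC5, a clamp loader subunit, had 23.5% and 8.15% and then 0 in both. DDB2 had 13.9% and 10.2% and then 0 in both, and XAB2 had 9.15% and 1.45% and then 0 in both. ERCC2 was the 1 promoter with the opposite order, at 0 and 7.20% without UV against 26.8% and 23.9% after it.

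The stretches of the XRCC1 and XAB2 promoters that lay under peaks of both replicates are shown. They are 223 and 29 bases long. Most of the coverage behind the differences at these 2 promoters lay in 1 replicate only. They are read 5′ to 3′ on the gene's strand from hg38, and capitals mark CG dinucleotides. RFC5 has none, since its replicates had no base in common. XRCC1 (chr19:43580248-43580470, minus strand) and XAB2 (chr19:7628545-7628573, minus strand) were covered without UV.
XRCC1: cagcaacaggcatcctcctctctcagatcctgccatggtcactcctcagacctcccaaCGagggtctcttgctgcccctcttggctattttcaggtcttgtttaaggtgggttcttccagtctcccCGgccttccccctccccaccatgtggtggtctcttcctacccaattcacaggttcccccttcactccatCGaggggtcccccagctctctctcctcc
XAB2: ggactcattcctggcccagagccctaatg
The XRCC1 stretch begins 3 bases into the gene, counted from the outermost annotated start, which lies 4946 bases from the canonical start. It holds 3 CG dinucleotides. The same window at the outermost start of all protein-coding genes holds a median of 16, and 87.2% of genes have at least as many. The XAB2 stretch, at the downstream edge of the window, has none, and the median over all genes there is 0.

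By peak centres, 2 repair promoters (4.26%) held a centre in both lists without UV and in neither at 3 h, beside 3.84% of all promoters, and none the reverse, beside 1.31%. The 2 were RFC5 and XRCC1. Both rest on the outermost annotated start. The canonical start lies 3115 bases further in for RFC5 and 4946 bases for XRCC1, and there XRCC1 was covered to 11.7% and 22.1% without UV and to 0 and 8.45% at 3 h. With canonical starts no repair promoter met this rule. Without the second list without UV 5 promoters met it and without the second list at 3 h 4, and in the latter case 1 promoter met the opposite rule. No share over all promoters is given for these counts.

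For ASH1L-CTD the conditions overlapped at nearly all repair genes. It lay over a median of 16.1% of a repair locus without UV and 17.7% at 3 h, beside 14.3% and 15.2% over all genes. Pooled, the lists without UV covered 17.2%, 13.8% and 11.3% of the loci and the lists at 3 h 13.9%, 13.5% and 16.1%, so that the conditions overlapped (14.1% ± 2.98, SD, n = 3, against 14.5% ± 1.42, log2 ratio 0.04). Over all genes the log2 ratio was 0.05. Limma called none of the 46 repair loci (beside 0% of 19523 genes), none of 45 promoters (beside 0%) and none of 46 bodies (beside 0%). Without adjustment 1 locus was higher, beside 508 of 19523 genes, 1 body was higher, beside 499 of 18744, and 2 promoters were lower, beside 120 of 18607. With 3 against 3 lists the smallest two-sided exact permutation p is 0.1.

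The first list without UV was the highest of its condition at 31 of the 47 loci and the third the lowest at 28. These lists also differed in how coverage followed base composition. Across the 47 loci the Spearman correlation of coverage with G+C content was 0.70 in the first list without UV, 0.23 in the third, and 0.81 in the third list at 3 h. The part of this in single differences was not tested.

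Few loci separated the conditions. RAD23B was the 1 locus (2.13%, beside 2.14% of all genes) whose 3 lists at 3 h all lay below, with 4.95%, 6.81% and 11.5% without UV and 1.72%, 4.37% and 2.28% at 3 h (exact permutation p = 0.1). In 2 loci (4.26%, beside 5.22%) all lay above. POLE4 had 9.53%, 11.4% and 12.7% without UV and 17.7%, 20.2% and 28.1% at 3 h, a difference of 10.8 percentage points (SE 3.81, exact permutation p = 0.1). MNAT1 had 9.70%, 10.8% and 10.8% and then 11.2%, 11.5% and 11.2%, a difference of only 0.91 percentage points. Leaving out the first list without UV raised the 2 to 9 and leaving out the second list at 3 h raised it to 7. The 1 lower locus became 6 without the third list without UV, 3 without the second list at 3 h and 2 without any other. With fewer lists the conditions separate more easily at any gene, and no share over all genes is given for these counts.

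The 3 genes always given showed no separation for ASH1L-CTD. XPC was at 16.2%, 3.89% and 13.2% without UV and at 15.0%, 12.6% and 18.4% at 3 h. DDB2 was among the most covered loci at 32.8%, 22.0% and 20.8% and then 21.6%, 19.1% and 29.6%. ERCC6 was at 14.0%, 12.4% and 10.3% and then 19.4%, 12.5% and 14.3%. The other loci at the top were POLD4, with 55.7%, 30.4% and 18.7% without UV and 21.7%, 24.5% and 22.3% at 3 h, and XAB2, with 17.5%, 19.5% and 28.8% and then 28.5%, 15.1% and 35.4%. USP7 was at 26.2%, 16.5% and 13.0% and then 19.8%, 25.4% and 22.2%. Neither USP7 nor XAB2, the loci that fell for H3K36me2, separated the conditions here.

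At the low end ERCC5 was at 0 in all 3 lists without UV and reached 1.19% in 1 list at 3 h. This locus, which it shares with BIVM and the readthrough gene BIVM-ERCC5, was thus almost empty for both antibodies. RFC3, a clamp loader subunit, was covered to between 1.18% and 3.16% over the 6 lists. By role, pooled coverage of the transcription-coupled genes was 14.0% ± 2.41 (SD, n = 3) without UV and 17.03% ± 1.39 at 3 h. The lists were at 16.2%, 14.5% and 11.4% without UV and at 16.8%, 15.8% and 18.5% at 3 h, so the conditions overlapped. In this role 6 of 7 means were higher (85.7%, beside 55.2% of all genes). Pooled coverage of the other roles differed by at most 1.33 percentage points.

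At promoters ASH1L-CTD was patchy and varied widely between lists. Pooled coverage of the repair promoters was 23.8% ± 5.44 (SD, n = 3) without UV and 21.2% ± 5.29 at 3 h. Over all promoters it was 17.5% ± 4.73 and 19.5% ± 5.66. By peak centres 18 repair promoters (38.3%) were held in a majority of lists in both conditions, against 25.3% of all promoters. A majority without UV gave way to no list at 3 h in 4 repair promoters (8.51%, beside 5.40%), and no list without UV to a majority at 3 h in 3 (6.38%, beside 5.90%).

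The 4 promoters that held ASH1L-CTD only without UV came from 4 roles. RAD23B was covered to 9.35%, 27.8% and 36.3% without UV and to 0 in all 3 lists at 3 h. ERCC4 was covered to 35.98%, 30.6% and 23.4%, and RFC2 to 14.9%, 11.2% and 68.5%, each with 0 in all 3 lists at 3 h. USP7 was covered to 55.0%, 68.6% and 0 and then to 0 throughout. The shared ERCC4 site, chr16:13919832-13920598, was centred in exon 1, 77 bases into the gene, and reached at most 1.95-fold enrichment. In all, 5 repair promoters (10.6%, beside 2.94% of all promoters) had every list at 3 h below every list without UV, and 2 (4.26%, beside 4.71%) above. At the polymerase epsilon subunits POLE and POLE2 the ranges were also apart, with POLE at 56.0%, 87.4% and 35.7% and then 0, 14.1% and 9.95%, and POLE2 at 100%, 66.2% and 35.5% and then 0, 5.90% and 27.7%. These 2 promoters were the ones past an unadjusted p of 0.05 in limma.

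The 3 promoters with the opposite order were GTF2H5 and CCNH of TFIIH and UVSSA. GTF2H5 was at 0 in all 3 lists without UV and at 8.85%, 21.5% and 41.8% at 3 h. CCNH, the cyclin of the CDK7 kinase, was at 0 in all 3 lists without UV and at 0, 39.2% and 44.2% at 3 h. UVSSA, which brings USP7 to the stalled polymerase, was at 0, 4.65% and 0 and then at 16.8%, 13.3% and 81.6%. In the TFIIH group the promoters were covered to 10.3% ± 1.26 (SD, n = 3) without UV and 24.0% ± 14.5 at 3 h, so the higher mean came with a wide spread.

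**Figure D5:**
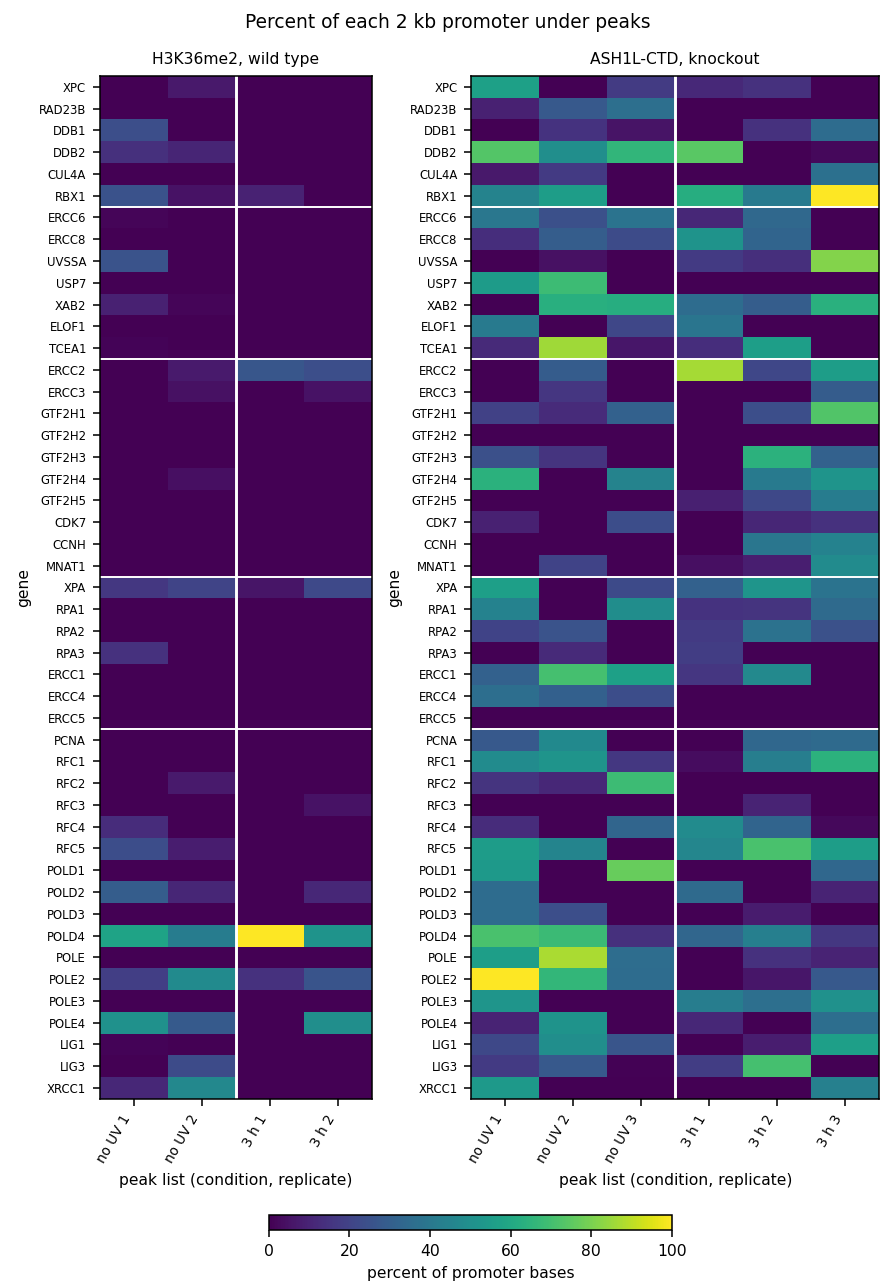
Percent of each promoter (1 kb on either side of the start) under peaks for the 47 repair genes, in the 4 H3K36me2 lists and the 6 ASH1L-CTD lists, with conditions parted by a vertical line and roles by horizontal lines. Most H3K36me2 cells are at 0, and RAD23B, ERCC4, RFC2 and USP7 are at 0 in all 3 ASH1L-CTD lists at 3 h.

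The count of such promoters moved with the lists. Without the second or the third list at 3 h, 7 and 8 repair promoters rather than 4 met the first rule. Without the first or the second list without UV 5 rather than 3 met the second rule, and without the third list at 3 h 1 did. These counts have no share over all promoters beside them. Moving to canonical starts took USP7 off the list, since its canonical start lies 11422 bases further in. UVSSA, whose canonical start lies 1517 bases away, still met the second rule there by peak centres. Its coverage at that start overlapped between conditions, at 38.9%, 0 and 0 without UV and 8.20%, 52.1% and 47.8% at 3 h.

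A further 24 genes that act in or around the pathway were treated in the same way, among them CETN2, PARP1 and the COP9 signalosome subunits. None passed the adjusted threshold in any of the 6 limma fits. For H3K36me2, 14 of the 24 loci (58.3%, beside 73.5% of all genes) had a lower and 8 (33.3%, beside 20.5%) a higher mean at 3 h. Without adjustment 2 of the 22 tested were lower and 0 higher, beside 5055 and 287 of all 18766 genes. Pooled coverage was 3.65% ± 0.02 (SD, n = 2) without UV and 2.64% ± 0.45 at 3 h, below that of the repair genes in both conditions. For ASH1L-CTD, 19 of the 24 (79.2%, beside 55.2% of all genes) had a higher and 5 (20.8%, beside 42.6%) a lower mean at 3 h. Pooled coverage was 11.2% ± 0.91 (n = 3) without UV and 12.02% ± 0.61 at 3 h.

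Levels of the antibodies were weakly related across the repair genes. Over the 47 loci the Spearman correlation between mean H3K36me2 and mean ASH1L-CTD coverage was 0.27 without UV and -0.01 at 3 h. The antibodies were used in different cells, so these values set separate experiments side by side. Sites called in a majority of lists in 1 condition often had no counterpart in the other. Of 139 H3K36me2 sites without UV in the repair loci, 82 (59.0%) overlapped no such site at 3 h, and of 92 sites at 3 h, 35 overlapped none without UV. For ASH1L-CTD these were 214 of 414 (51.7%) and 237 of 432 (54.9%). These counts have no share over all genes beside them. Many peaks also failed to recur within a condition. Over the genome, only 224958 to 268074 peaks of a full ASH1L-CTD list were shared with another replicate of the same condition. For H3K36me2 these were 321415 to 327523. Whether sites differed more between conditions than between replicates was not tested.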

How the data were processed

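Chromatin immunoprecipitation sequencing of H3K36me2 in wild-type U2OS cells and of Flag-tagged ASH1L-CTD in ASH1L-/- U2OS cells was analysed from the 10 deposited broad peak lists. Per the submitters' processing notes and the study's methods, the authors trimmed reads (Trim Galore 0.6.5), aligned them with BWA 0.7.17-r1188 to hg38 without chromosome Y, removed low-quality alignments, duplicates and blacklisted regions (SAMtools 1.7, Picard, bedtools 2.29.2), and ran MACS2 2.2.7.1 in its broad mode on every replicate separately. The deposited columns used were peak positions, the ratio of enrichment (fold over control) and −log10 p. The lists had been cut at 500000 peaks, so a peak absent from a list may only have ranked below that number, and depth is unknown.

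Genes were the 19970 protein-coding genes of GENCODE release 44 on hg38 (names and coordinates from that annotation), and all 47 symbols matched. The percent of bases under peaks was computed per list over the locus (5 kb flanks), promoter (1 kb either side) and body, and differences were tested with limma 3.58.1 in R 4.3.3 over all genes with coverage in at least 1 list, with the prior variance following locus length (loci, bodies) or mean coverage (promoters) and Benjamini-Hochberg adjustment at 0.05. Single genes were tested by exact permutation (scipy 1.17.1). The coverage and limma steps were tested on simulated data. The simulated coverage lay well above 0 and its shifts were larger than the falls at the called repair loci. The simulation therefore does not cover loci near 0. Sites are merged peaks held by at least 2 replicates. Genes were named by rule: those past the threshold, those whose promoter went from a majority of lists to none or the reverse, the 5 largest non-overlapping differences per direction and antibody, the 3 highest and 3 lowest levels, and XPC, DDB2 and ERCC6. Others in the text (DDB1, ERCC2, POLD3 and further genes of a role) were added after their values were seen. The members and lists were chosen with earlier results of these data known. Input and empty-vector samples enter only through the authors' peak calling. Alternatives were robust peaks, stricter p, scaling, other flanks, promoters and starts, peak centres, other test scales, pairing and leaving out each list. Some sequences and a gene are not reported here.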

Additional observations from a re-analysis of the deposited data

How the results depend on the processing

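The falls at USP7 and XAB2 kept their direction in the alternatives that gave them a value (XAB2 had none with a −log10 p of at least 3) but passed the threshold in few. The 2 H3K36me2 loci called lower became 6 with peaks shared by replicates, beside 4605 of 16046 genes. With a shared 50% they became 7, beside 5201 of 15739. They became 0 with a −log10 p of at least 2 or of at least 3, by peak centres and on a log2 scale, beside 0 genes. Scaling to genome coverage gave 0, beside 258 of 18766 genes, and no flanks gave 0, beside 579 of 16442. With one prior variance 1 remained, beside 952 of 18766 genes. The replicate block left 1 (USP7), beside 1727 of 18766. Shared peaks gave 1 locus called higher, beside 432 genes. Leaving out single H3K36me2 lists gave 0 to 0 loci called lower, 5 to 5 non-overlapping higher, 0 to 11 promoters (8 without the first list without UV, 11 without the second) and 0 to 3 bodies called lower, 2 to 5 promoters lost (a peak centre in a majority of lists without UV and in none at 3 h) and 0 to 1 gained (the reverse). Leaving out single ASH1L-CTD lists gave 2 to 6 non-overlapping lower loci, 3 to 9 higher, 3 to 8 promoters lost and 1 to 5 gained. For H3K36me2 the pooled log2 ratio was -0.66 with shared peaks, -0.23 with a −log10 p of at least 3, -0.41 after scaling and -0.36 by centres at loci. At bodies these were -0.75, -0.11, -0.39 and -0.32. Over all genes the ratio was -0.13 after scaling and -0.10 by centres at loci, and -0.09 and -0.07 at bodies. At repair promoters the pooled log2 ratio was -1.25 with a shared 50%, -1.66 and -2.03 with a −log10 p of at least 2 and 3, and -1.72 at canonical starts. Promoters called lower were 2 with shared peaks, 2 with a shared 50% and 2 by centres. Over all genes these were 1321 of 7105, 1232 of 6426 and 713 of 7629. With shared peaks 1 promoter was higher, beside 265. Bodies called lower were 6, 6 and 2, beside 3331 of 12571, 3859 of 12275 and 545 of 15677. With a shared 50% 1 body was higher, beside 673. The 24 non-overlapping lower loci became 14 and 2 with a −log10 p of at least 2 and 3 and 15 by centres, and the 3 higher became 0 with a −log10 p of at least 3, 1 without flanks, 1 with 10 kb flanks and 1 by centres. The 2 promoters lost became 1 with a shared 50%, 0 and 0 with stricter p, 6 with 2 kb windows, 0 at canonical starts and 4 by any overlap. For ASH1L-CTD a shared 50% called 1 locus lower and 1 higher, beside 192 and 1082 of 18542 genes. It also called 1 body lower and 1 higher, beside 149 and 683 of 17015. Centres called 2 promoters lower, beside 207 of 18348. The pooled promoter ratio was -0.92 with a −log10 p of at least 2. The 1 non-overlapping lower locus became 2 with shared peaks, 4 with a shared 50%, 2 with 10 kb flanks and 0 with stricter p, scaling, no flanks or centres. The 2 higher became 9, 12, 0 with stricter p and 1 by centres. The 4 promoters lost became 11, 9, 0 with stricter p and 1 with 2 kb windows, and the 3 gained became 10, 7 and 0. The non-overlap, lost and gained counts in this paragraph have no share over all genes beside them, so they describe only the listed genes. The same holds for the pooled ratios other than those after scaling and by centres, which have no ratio over all genes beside them. The causes were not tested.

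Same-numbered replicates did not deviate together, with correlations of 0.01 for H3K36me2 and of -0.27, 0.11 and -0.44 for ASH1L-CTD, so the numbers were not taken as pairs. The replicate block left 1 H3K36me2 locus called lower. The lists give no read depth, and each stops at 500000 peaks, so a locus at 0 may hold weaker peaks. With 2 H3K36me2 lists a condition, every call rests on the spread pooled across genes.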
